A study of Mus musculus with 9 samples.

Results

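The serpins were taken as every gene whose symbol starts with Serpin, which gave 62 of the 21944 genes in the deposited table. By the clade letter of the symbol, 29 belong to clades A, C, D, F and G (24, 1, 1, 2 and 1 genes), here called the liver clades, and 33 to clades B, E, H and I (27, 3, 1 and 2 genes). They were followed in total RNA of 9 mouse tumour libraries, 3 per group. The N134 line derives from a pancreatic neuroendocrine tumour of the mouse. Its counterpart N134-RHAMMB carries the name of RHAMMB, one isoform of RHAMM, which binds hyaluronan. The groups were subcutaneous tumours of N134 (tumours 1, 2 and 3), subcutaneous tumours of N134-RHAMMB (tumours 1, 2 and 4) and liver metastases of N134-RHAMMB (metastases 1, 2 and 3). All hosts were NOD.Cg-PrkdcscidIl2rgtm1Wjl/SzJ (NSG) mice, a strain without mature lymphocytes or natural killer cells, and cells were given under the skin or through the tail vein. The site of growth and the route of injection therefore cannot be told apart. Whether the replicates are separate animals is not labelled. The p-values therefore measure the scatter of these samples alone, part or all of which may be technical.

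Serpins are proteins of one shared fold that mostly block serine proteases. The protease cuts an exposed bait stretch near the serpin's C-terminal end, the reactive centre loop, and is then trapped in a covalent complex as the serpin springs into a new shape. Hepatocytes secrete many of the extracellular serpins into plasma, among them alpha-1-antitrypsin (the Serpina1 genes), antithrombin (Serpinc1) and the C1 inhibitor (Serping1). A few members inhibit no protease: Serpina6 and Serpina7 carry hormones in blood, and Serpinh1 is a collagen chaperone of the endoplasmic reticulum. Most clade B serpins stay inside cells and protect them from their own or released proteases.

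The 5 genes Serpina1a to Serpina1e, on the minus strand of chromosome 12, were the most abundant group of serpin transcripts in every subcutaneous tumour. Their coding sequences (GENCODE M21, GRCm38) were 96.3% to 98.5% identical in pairs, so that fragments are hard to assign to 1 copy. Over 1239 aligned coding positions 86 varied (6.94%). The window of 60 nucleotides with the most variable positions held 18 of them (30.0%) and lies at coding nucleotides 1101 to 1160 of the 1239 of Serpina1b, in the part that encodes the reactive centre loop. It is shown because it holds the letters that tell the copies apart, which are in capitals.
Serpina1a: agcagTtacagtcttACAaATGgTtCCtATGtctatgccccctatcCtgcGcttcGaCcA
Serpina1b: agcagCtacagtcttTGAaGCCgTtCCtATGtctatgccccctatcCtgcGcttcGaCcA
Serpina1c: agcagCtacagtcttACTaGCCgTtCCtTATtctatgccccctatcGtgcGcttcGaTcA
Serpina1d: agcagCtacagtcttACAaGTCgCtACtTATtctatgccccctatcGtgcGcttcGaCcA
Serpina1e: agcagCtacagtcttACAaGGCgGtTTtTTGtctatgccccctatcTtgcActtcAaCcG

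Promoter windows of 300 bases (250 before to 50 after the start, RefSeq, GRCm38.p6) were matched for 53 of the 62 serpins by symbol. The core TTGCNNAA of C/EBP factors, regulators of liver and fat cell genes, was found in 13 of 26 liver-clade windows (11 of 23 genes), in 4 of 36 windows of clades B, E, H and I, and in 10.8% of 32851 windows of all genes. In the same order, the HNF4 letters CAAAGNCCA were in 3 of 26, 2 of 36 and 1.98%. The STAT element TTCNNNGAA was in 7 of 26, 4 of 36 and 8.30%, and the heat shock pair GAANNTTC in 2 of 26, 4 of 36 and 7.86%, all on both strands. TATAAA, on the gene's strand, was in 5 of 26, 8 of 36 and 8.32%. Overlap between motifs was not removed. Some genes had more than 1 window, and those of Serpina7 and of Serpina11 overlap, so that 1 site was counted more than once. By gene, in the same order, the C/EBP core was in 11 of 23, 3 of 30 and 3298 of 27025. The HNF4 letters were in 2 of 23, 2 of 30 and 617, and the STAT element in 5 of 23, 3 of 30 and 2582. The heat shock pair was in 2 of 23, 4 of 30 and 2442, and TATAAA in 4 of 23, 6 of 30 and 2641. The windows of Serpina1a to Serpina1e were 91.7% to 98.4% identical in pairs, so windows of these genes are not separate counts. Of the 5, Serpina1c held no C/EBP match, and that of Serpina1a lay after the start while those of Serpina1b, Serpina1d and Serpina1e lay before it. 4 windows are printed to set genes that were high in all groups beside genes that were high in metastases only, with the C/EBP core in capitals on either strand. They are Serpina1b (chr12:103738140-103738439, minus strand), Serpina1e (chr12:103956848-103957147, minus strand), Serpina7 (chrX:139085170-139085469, minus strand) and Serpinc1 (chr1:160978333-160978632, plus strand). All 4 hold a match, and that of Serpinc1 also lies after the start. Of other genes that reached 1 FPKM in metastases only, Serpina11, Serpina3c, Serpind1, Serpinf2 and Serpinb6b held none. Serpina10, Serpina3k, Serpina3m and Serpina6, also of that kind, had no window. Serpina12, Serpina1f, Serpina3b, Serpina3f and Serpina5 held a match but stayed under 1 FPKM in every library. A match is a description of letters and not a bound site.
Serpina1b: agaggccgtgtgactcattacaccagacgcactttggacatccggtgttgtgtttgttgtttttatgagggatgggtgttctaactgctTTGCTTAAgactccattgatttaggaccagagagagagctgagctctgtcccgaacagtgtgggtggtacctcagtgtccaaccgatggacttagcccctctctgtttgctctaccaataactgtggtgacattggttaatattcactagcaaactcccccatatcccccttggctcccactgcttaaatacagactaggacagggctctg
Serpina1e: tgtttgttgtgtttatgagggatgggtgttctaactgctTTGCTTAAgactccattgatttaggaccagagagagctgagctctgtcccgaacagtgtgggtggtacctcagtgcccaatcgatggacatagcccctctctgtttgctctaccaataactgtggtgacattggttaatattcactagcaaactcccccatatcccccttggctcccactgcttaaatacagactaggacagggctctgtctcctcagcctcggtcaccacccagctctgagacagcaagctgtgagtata
Serpina7: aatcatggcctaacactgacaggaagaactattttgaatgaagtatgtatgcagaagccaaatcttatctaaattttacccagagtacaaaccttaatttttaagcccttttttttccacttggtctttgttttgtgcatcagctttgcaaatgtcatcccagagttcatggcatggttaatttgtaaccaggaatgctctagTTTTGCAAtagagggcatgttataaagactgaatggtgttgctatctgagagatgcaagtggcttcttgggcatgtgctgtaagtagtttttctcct
Serpinc1: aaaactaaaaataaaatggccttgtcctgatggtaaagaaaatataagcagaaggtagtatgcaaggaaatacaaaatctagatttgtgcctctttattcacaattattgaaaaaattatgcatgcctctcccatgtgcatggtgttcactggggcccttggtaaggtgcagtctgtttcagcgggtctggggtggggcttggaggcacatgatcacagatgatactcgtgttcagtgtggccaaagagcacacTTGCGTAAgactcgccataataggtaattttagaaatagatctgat

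Values are the authors' deposited FPKM, which scale fragments by transcript length and by library depth. They are per length and can be set side by side between genes. Depth, estimated from the steps of the lowest values, was 14.5 to 18.6 M fragments. A single fragment in 2 kb of transcript then equals 0.0268 to 0.0345 FPKM, and values under about 0.1 rest on a few fragments. The tissue labels were checked against markers. The 16 beta cell genes summed to 32400 to 49100 FPKM in the 9 libraries. The 20 hepatocyte genes summed to 365 to 504 FPKM in the 6 subcutaneous tumours, of which Ttr, also an islet gene, made up 282 to 427, and to 6980 to 7370 in metastases. Albumin (Alb) had mean FPKM of 1.33 (N134), 0.629 (N134-RHAMMB) and 1510 (metastases). Markers of skeletal muscle summed to 180 and 221 FPKM in N134-RHAMMB tumours 2 and 4 against 8.35 to 23.1 elsewhere, and keratinocyte markers to 73.0 in N134-RHAMMB tumour 2 against 5.80 to 17.5 elsewhere. Mylpf made up 106 and 117 of these 2 muscle sums, and Krtdap 51.4 of the keratinocyte sum of 73.0. Fibroblast markers summed to 738 to 1030, 366 to 598 and 226 to 437 FPKM in the 3 groups, and macrophage markers to 507 to 862, 363 to 490 and 236 to 394. Col3a1 alone, a fibroblast marker, was at 433 to 645, 200 to 333 and 111 to 285 FPKM in these groups. In bulk samples fewer cells of a type and less RNA per cell cannot be told apart.

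All serpins together summed to 496, 571 and 517 FPKM in N134 tumours, 686, 615 and 618 in N134-RHAMMB tumours and 1260, 1150 and 951 in metastases. The liver clades made up 67.5% ± 4.56, 81.0% ± 2.86 and 91.6% ± 2.28 of these sums (SD, n = 3). What filled that share differed. In the subcutaneous tumours it was mostly the Serpina1 genes, which took 53.4% ± 6.51 of all serpin FPKM in N134 tumours and 73.8% ± 3.28 in N134-RHAMMB tumours, against 30.7% ± 9.53 in metastases. In metastases the other clade A genes summed to 394 ± 33.6 FPKM, against 17.8 ± 3.86 and 12.8 ± 3.63 in the tumours, and clades C, D, F and G to 281 ± 35.2 against 56.4 ± 7.47 and 33.8 ± 6.48. Clades B, E, H and I summed to 172 ± 30.6, 121 ± 14.1 and 92.0 ± 17.2 FPKM in the same order of groups.

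**Figure D1:**
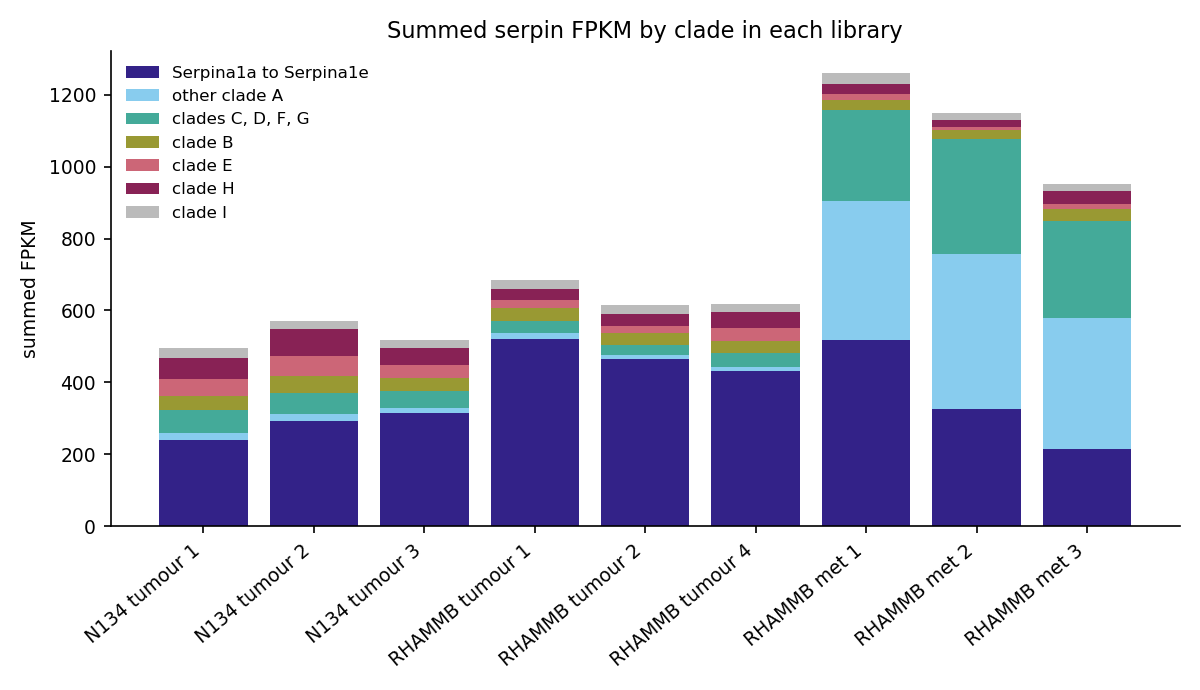
Summed FPKM of the serpin genes in each library (bars, 9 libraries), stacked by clade with the 5 Serpina1 genes shown apart. Totals were 496 to 686 in the 6 subcutaneous tumours and 951 to 1260 in the 3 metastases, where the layers of other clade A genes and of clades C, D, F and G are the thickest beside Serpina1.

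The order of the levels changed between groups. By mean FPKM the leading serpins of N134 tumours were Serpina1b (153), Serpinh1 (60.9), Serpina1c (41.9), Serpina1e (41.4) and Serpinb6a (34.4). N134-RHAMMB tumours were led by Serpina1b (220), Serpina1e (98.9), Serpina1c (82.1), Serpina1a (47.3) and Serpinh1 (36.7). Metastases were led by Serpina3k (282), Serpinc1 (178), Serpina1b (168), Serpina1c (73.3) and Serpina1a (52.7). Neighbours in these orders whose libraries overlapped were Serpina1c, Serpina1e and Serpinb6a in N134 tumours, and Serpina1e and Serpina1c in N134-RHAMMB tumours. In metastases they were Serpinc1 with Serpina1b, and Serpina1c with Serpina1a.

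Detection split the family. 11 genes were listed at 0 in all 9 libraries (Serpina16, Serpine3 and 9 of clade B), 20 had some value but stayed under 1 FPKM everywhere (7 of clade A, 12 of clade B and Serpini2), and Serpinb5 reached 1.23 FPKM in N134-RHAMMB tumour 2 alone. The other 30 reached 1 FPKM in at least 3 libraries and were tested: 21 of 29 liver-clade genes (72.4%) and 9 of 33 of the others (27.3%). 11 of the 30 passed that filter through the metastases alone (Serpina3c, Serpina3k, Serpina3m, Serpina6, Serpina7, Serpina10, Serpina11, Serpinb6b, Serpinc1, Serpind1 and Serpinf2), and Serpinb1a through subcutaneous tumours alone. These had to differ, so the counts below describe the tested genes and are no support for a general rise of the family. For the same reason the p-values of these genes below are descriptive.

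Differences are on the log2(FPKM + 1) scale, on which low genes appear to change less than they do, and were tested with limma over all 12854 tested genes (called at an adjusted p below 0.05). The 3 comparisons share groups and are given side by side. The first sets N134-RHAMMB against N134 tumours at the same subcutaneous site. No serpin was called (0 of 30 in limma, with 9 at an unadjusted p under 0.05), beside 0.194% of all genes (0.0778% higher and 0.117% lower). Of all 12854 genes 1648 had an unadjusted p under 0.05. With library weights limma called 10 serpins and with the 2 groups alone 3. The median difference was 0.01 over the 21 liver-clade genes and -0.29 over the 9 others, beside 0.01 over all genes. The 3 libraries of the groups did not overlap for 12 of 30 serpins, 5 higher and 7 lower in N134-RHAMMB tumours, where 25.3% of all genes did not overlap.

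Metastases against N134-RHAMMB tumours compare the same line in liver and under the skin. 14 of 30 serpins were called higher and 2 lower, beside 5.04% and 1.52% of all genes (6.56% in either direction). Of the liver clades 13 of 21 were higher and 1 lower (median 1.94), and of clades B, E, H and I 1 of 9 was higher and 1 lower (median -0.40), beside a median of -0.06 over all genes. Among the 18 serpins that reached 1 FPKM in both kinds of tissue, 3 were higher and 1 lower, with a median of -0.15. The libraries did not overlap for 20 of the 30, beside 19.8% of all genes. Without N134-RHAMMB tumours 2 and 4, an alternative added after seeing the data, 12 serpins were called in place of 16.

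Against N134 tumours, which differ from metastases in line and site, 15 of 30 serpins were called higher and 5 lower in metastases, beside 5.69% and 4.23% of all genes (9.93% in either direction). The liver clades had 14 of 21 higher and 0 lower (median 1.34). Clades B, E, H and I had 1 of 9 higher and 5 lower (median -0.79, beside -0.03 over all genes). Of the 18 serpins at 1 FPKM in both tissues, 4 were higher and 4 lower. The libraries did not overlap for 21 of the 30, beside 25.7% of all genes.

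**Figure D2:**
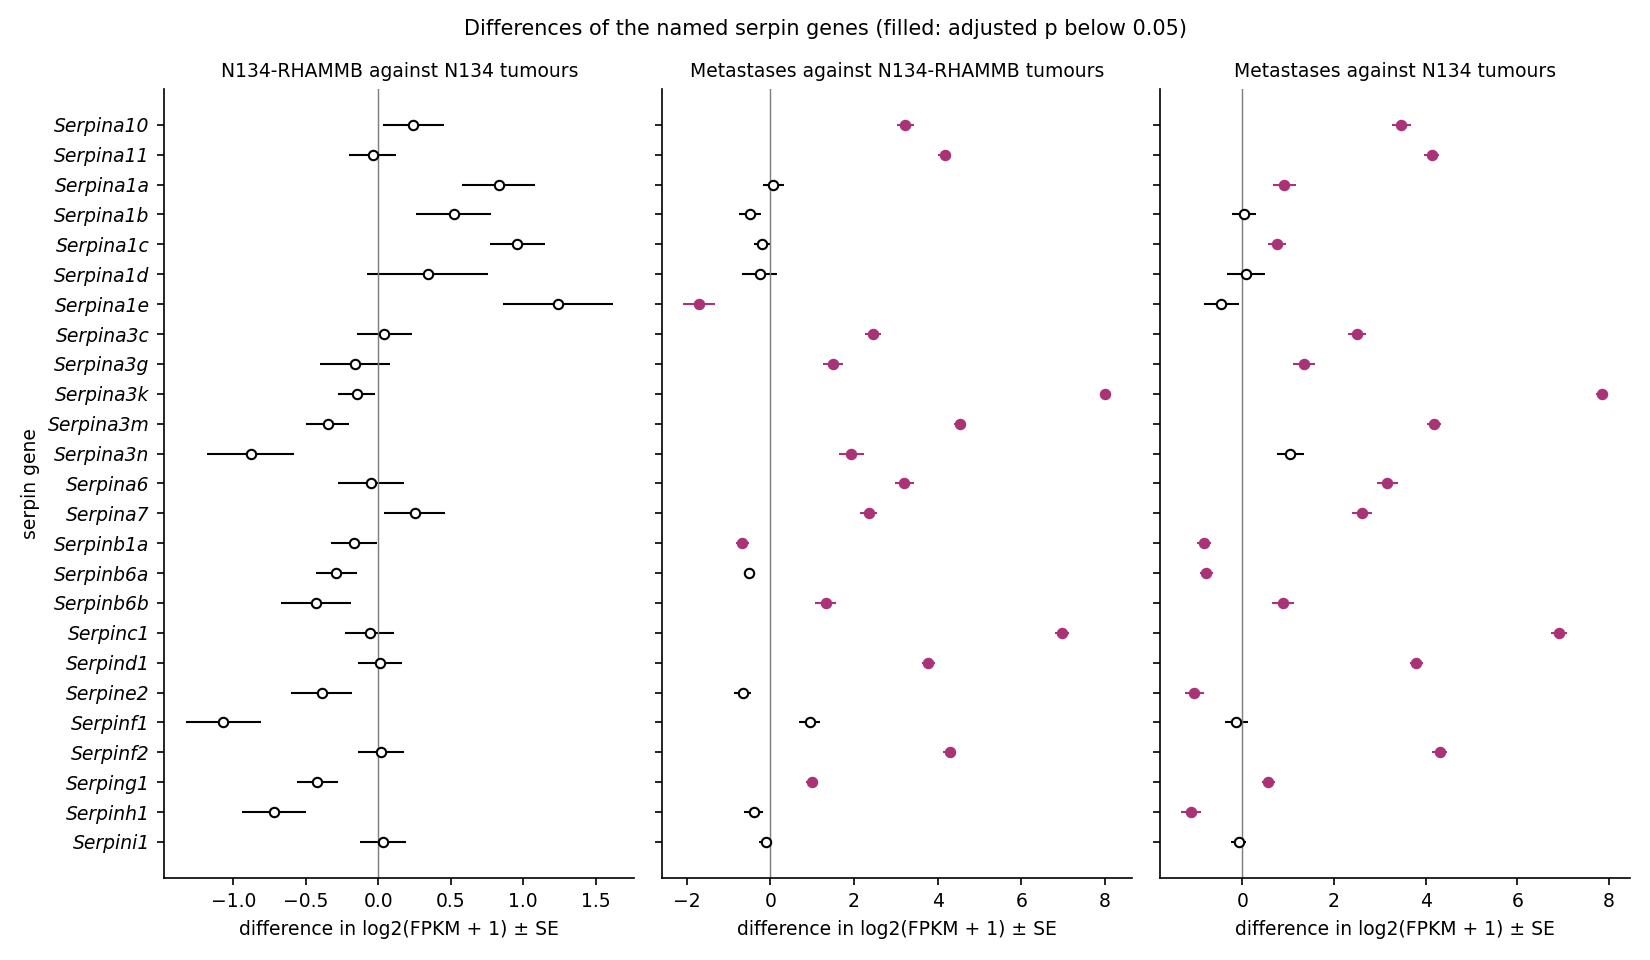
Differences on the log2(FPKM + 1) scale (points, bars ± SE) of 25 serpins named by the rule, in the 3 comparisons; filled points passed limma at an adjusted p below 0.05. No point is filled for N134-RHAMMB against N134 tumours, and the metastasis panels reach 8.01 and 7.86 (Serpina3k) on wider axes.

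Alpha-1-antitrypsin, the main plasma inhibitor of neutrophil elastase, gave the most abundant serpin transcripts under the skin. Serpina1a to Serpina1e summed to 239, 293 and 314 FPKM in N134 tumours, 520, 464 and 433 in N134-RHAMMB tumours and 518, 326 and 214 in metastases. All 3 N134-RHAMMB tumours lay above all 3 N134 tumours, and the metastases spanned both groups. These sums stood in subcutaneous libraries where Alb was 0.481 to 1.60 FPKM, and acinar genes summed to 1.11 to 4.53 FPKM over the 9 libraries. Which cells made the Serpina1 transcripts was not tested. Elane, the elastase that alpha-1-antitrypsin targets, was listed at 0 in 7 of 9 libraries and reached at most 0.104 FPKM. The mouse copies differ in the part that encodes the reactive centre loop, and whether all share this target was not tested.

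Serpina1b (ENSMUSG00000071178, chromosome 12, 103728156 to 103830373) led the 5 copies, at 132, 162 and 166 FPKM in N134 tumours, 237, 224 and 199 in N134-RHAMMB tumours and 249, 153 and 102 in metastases. It made up 54.5% ± 1.39 of the Serpina1 sum in N134 tumours, 46.6% ± 1.51 in N134-RHAMMB tumours and 47.5% ± 0.602 in metastases. The share was higher in N134 tumours than in either other group with no overlap. The annotated locus of Serpina1b contains that of Serpina1d on the same strand (9999 shared nucleotides), which adds to the uncertainty of both.

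Serpina1e (ENSMUSG00000072849, chromosome 12, 103946931 to 103958975) had the largest differences of the 5 copies in both comparisons with N134-RHAMMB tumours. It measured 32.7, 41.1 and 50.5 FPKM in N134 tumours, 120, 85.2 and 91.9 in N134-RHAMMB tumours and 62.9, 22.4 and 17.7 in metastases. The N134-RHAMMB tumours were above both other groups in every library, and metastases overlapped N134 tumours. It fell by 1.70 in metastases against N134-RHAMMB tumours (SE 0.38, limma adjusted p = 0.0222). That call was lost when any 1 of the N134-RHAMMB tumours, or metastasis 2 or 3, was left out (limma adjusted p = 0.0538 to 0.0982), and in 10 of 20 alternatives in all. Against N134 tumours the difference was -0.46 (adjusted p = 0.558) and became -1.0 without metastasis 1 (adjusted p = 0.0167).

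Serpina1c measured 35.5, 43.8 and 46.3 FPKM in N134 tumours, 90.5, 80.7 and 75.1 in N134-RHAMMB tumours and 96.3, 68.8 and 54.7 in metastases. Serpina1a measured 22.9, 26.7 and 28.9, then 48.7, 46.7 and 46.5, then 62.2, 66.0 and 29.9 FPKM. For both genes every N134 tumour was below every library of the other groups. In metastases against N134 tumours Serpina1c rose by 0.76 (limma adjusted p = 0.0279) and Serpina1a by 0.91 (adjusted p = 0.0457). The call of Serpina1c did not survive the removal of N134 tumour 1, N134 tumour 2 or metastasis 1 (limma adjusted p = 0.0605 to 0.119). That of Serpina1a was lost in 17 of 20 alternatives, among them the loss of any 1 library other than metastasis 3 (adjusted p = 0.0686 to 0.162).

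For the line difference under the skin, the Serpina1 genes gave 0.83 (Serpina1a), 0.52 (Serpina1b), 0.96 (Serpina1c), 0.34 (Serpina1d) and 1.24 (Serpina1e), none past the threshold in limma over all 9 libraries (adjusted p = 0.0998 to 0.797). Serpina1a, Serpina1c and Serpina1e were called when only the libraries of the 2 groups were fitted (adjusted p = 0.0228, 0.0264 and 0.0314). They were also called with library weights, which give noisier libraries less say (adjusted p = 0.00757, 0.00196 and 0.00872). Leaving out 1 metastasis gave a call too: metastasis 3 for Serpina1a (0.0284), 1 or 2 for Serpina1c (0.0396 and 0.0445) and 1 for Serpina1e (0.0451). Serpina1d, at 15.3, 19.5 and 21.9, then 24.5, 27.0 and 20.7, then 47.3, 15.7 and 10.3 FPKM, overlapped between all groups.

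**Figure D3:**
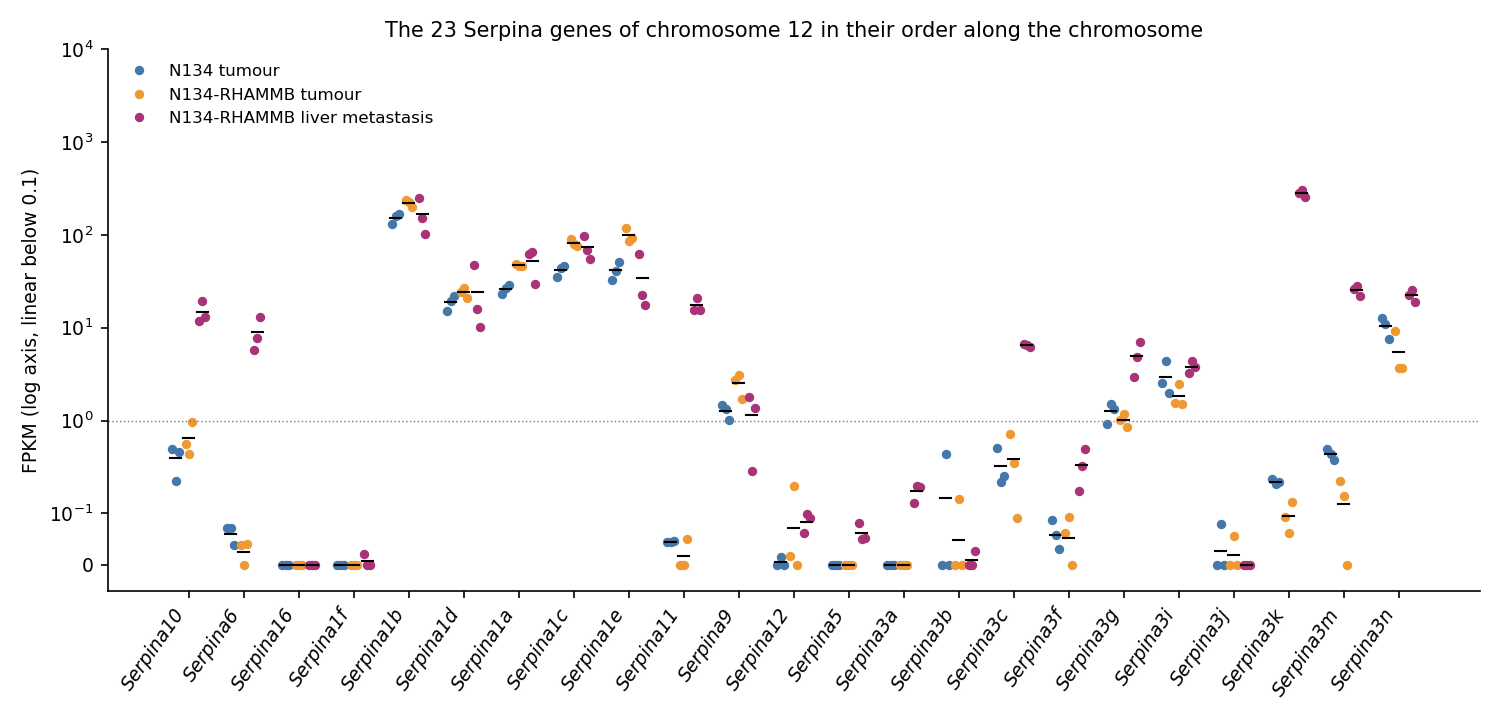
FPKM of the 23 clade A genes of chromosome 12 in each library (points, 3 per group; bars are group means) in their order along the chromosome, on a log axis that is linear below 0.1; the dotted line is 1 FPKM. Serpina1a to Serpina1e form a block that is high in all 3 groups, and on either side of it lie genes such as Serpina10, Serpina6, Serpina11 and Serpina3k that were under 1 FPKM in every subcutaneous tumour and above 5 in every metastasis.

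Clade A lies in a cluster of 23 genes on chromosome 12 (103614786 to 104414329) with Serpina7 alone on chromosome X. The levels along the cluster were not graded: the Serpina1 block was high in tumours, its neighbours Serpina1f and Serpina11 were at most 0.0498 FPKM there, and 15 of the 23 genes were tested. By contrast, 1 of 12 clade B genes of the chromosome 1 cluster (106861173 to 107610484) and 4 of 15 of the chromosome 13 cluster (32842092 to 34002794) were tested.

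The blood clotting serpins Serpinc1, Serpind1 and Serpina10 were metastasis transcripts. Serpinc1 (ENSMUSG00000026715, chromosome 1, 160978585 to 161005863), antithrombin, the inhibitor of thrombin and factor Xa, measured 0.396, 0.680 and 0.368 FPKM in N134 tumours, 0.670, 0.281 and 0.333 in N134-RHAMMB tumours and 167, 204 and 163 in metastases. Serpind1, heparin cofactor II, a second thrombin inhibitor, was at 0.028, 0.0563 and 0.059 FPKM in N134 tumours, 0.11, 0 and 0.0633 in N134-RHAMMB tumours and 11.3, 15 and 14.6 in metastases. Serpina10, which inhibits factor Xa with protein Z, was at 0.491, 0.225 and 0.458 FPKM in N134 tumours, 0.561, 0.44 and 0.956 in N134-RHAMMB tumours and 11.9, 19.2 and 12.9 in metastases. Every metastasis lay far above every subcutaneous tumour for these 3 genes. In metastases against N134-RHAMMB tumours they rose by 6.97 (SE 0.17, limma adjusted p = 1.81e-09), 3.78 (SE 0.15, 3.57e-08) and 3.23 (SE 0.21, 1.40e-06).

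The proteases they block were higher in the same libraries. F2, prothrombin, averaged 0.187 and 0.273 FPKM in the subcutaneous groups and 59.5 in metastases (5.56 against N134-RHAMMB tumours, limma adjusted p = 3.04e-09), and F10, factor X, 0.189, 0.185 and 10.2 (3.24, adjusted p = 1.62e-07). The hepatocyte marker sum moved with all of them (365 to 504 against 6980 to 7370 FPKM), and its part in these differences was not tested. Relative to Alb of the same metastasis, Serpinc1 was at 11.1%, 14.5% and 10.1% and Serpina3k at 18.9%, 21.7% and 16.0%. The remaining 8 metastasis-only liver-clade genes were at 0.345% to 1.99%.

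Fibrinolysis, the removal of clots by plasmin, has serpins in the liver clades and in clade E. Serpinf2, alpha-2-antiplasmin, was at 0.212, 0.15 and 0.308 FPKM in N134 tumours, 0.413, 0.0954 and 0.233 in N134-RHAMMB tumours and 19.9, 25.1 and 25.3 in metastases, a rise of 4.29 against N134-RHAMMB tumours (SE 0.16, limma adjusted p = 2.5e-08). Its target Plg, plasminogen, averaged 0.0201, 0.0213 and 32.4 FPKM in the 3 groups (5.02, adjusted p = 3.40e-09). Both are known as hepatocyte products, and both were near 0 under the skin.

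Serpine2, protease nexin 1, which blocks thrombin and the activators of plasminogen at cell surfaces, ran the other way. It measured 15, 13.1 and 14.8 FPKM in N134 tumours, 7.85, 9.53 and 15.8 in N134-RHAMMB tumours and 6.63, 5.96 and 6.49 in metastases. All 3 metastases were below all 6 tumours. It fell by 1.05 against N134 tumours (SE 0.21, limma adjusted p = 0.00884). Against N134-RHAMMB tumours the difference was -0.66 (adjusted p = 0.115), and -0.86 (adjusted p = 0.0456) without N134-RHAMMB tumour 1.

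The activators were measured beside it. Plau, the urokinase activator, averaged 6.54, 4.05 and 2.24 FPKM, and Plat, the tissue activator, 4.88, 3.15 and 2.43. They fell in metastases against N134 tumours by 1.18 (limma adjusted p = 0.00868) and 0.80 (adjusted p = 0.0201), and Plaur, the urokinase receptor, by 1.19 (4.43 to 1.34 FPKM, adjusted p = 0.0111). Vtn, vitronectin, a hepatocyte protein of plasma and matrix from the list of serpin cofactors, rose from 1.28 to 128 FPKM (5.81, adjusted p = 2.44e-09). Fibroblast and macrophage markers fell in parallel (11 of 14 and 10 of 12 genes lower in metastases against N134 tumours). Of all genes 4.23% were lower there. Against N134-RHAMMB tumours 6 of 14 fibroblast genes were lower and 1 higher, beside 1.52% and 5.04% of all genes. No macrophage gene of the 12 was called in that comparison. The part of these markers in the values of Serpine2 was not tested.

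The hormone carriers were also metastasis transcripts. Serpina6, corticosteroid-binding globulin, was at 0.0716, 0.072 and 0.0378 FPKM in N134 tumours, 0.0377, 0 and 0.0403 in N134-RHAMMB tumours and 5.77, 7.82 and 13.2 in metastases, a rise of 3.20 against N134-RHAMMB tumours (SE 0.23, limma adjusted p = 4.41e-06). Serpina7 (ENSMUSG00000031271, chromosome X, 139079257 to 139085236), thyroxine-binding globulin, measured 0.0727, 0.441 and 0.101 FPKM in N134 tumours, 0.283, 0.844 and 0.217 in N134-RHAMMB tumours and 5.19, 7.29 and 6.50 in metastases (2.35, SE 0.21, adjusted p = 2.35e-05). Each metastasis was above each tumour for both carriers.

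The Serpina3 genes are the mouse relatives of the single human antichymotrypsin gene, an acute phase inhibitor. Of 10 members in pairs, coding identity ran from 69.3% to 91.7%. Serpina3k (ENSMUSG00000058207, chromosome 12, 104338486 to 104346144) is a kallikrein-binding serpin found in plasma. It measured 0.233, 0.206 and 0.217 FPKM in N134 tumours and 0.0927, 0.0628 and 0.132 in N134-RHAMMB tumours. In metastases it was at 284, 305 and 258 FPKM, the highest serpin there. Its rise of 8.01 against N134-RHAMMB tumours (SE 0.13, limma adjusted p = 1.33e-10) was the largest of any serpin.

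Serpina3m, at 0.497, 0.434 and 0.378 FPKM in N134 tumours, 0.226, 0.154 and 0 in N134-RHAMMB tumours and 25.9, 28.0 and 21.9 in metastases, rose by 4.54 (adjusted p = 1.09e-08 in limma). Its annotated locus contains that of Serpina3k on the same strand (7659 shared nucleotides), and the pair was 91.7% identical in coding sequence, so how its fragments were split from those of Serpina3k is uncertain. Serpina3c, at 0.509, 0.217 and 0.256 FPKM in N134 tumours, 0.711, 0.348 and 0.091 in N134-RHAMMB tumours and 6.67, 6.53 and 6.23 in metastases, rose by 2.46 (adjusted p = 5.65e-06). Serpina11, a clade A gene next to the Serpina1 block, was at 0.044, 0.0445 and 0.0463 FPKM in N134 tumours, 0, 0 and 0.0498 in N134-RHAMMB tumours and 15.7, 21.1 and 15.4 in metastases (4.17, adjusted p = 2.34e-08).

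Serpina3n, Serpina3g and Serpina3i had values under the skin too. Serpina3n, a secreted inhibitor of granzyme B that rises in acute inflammation, measured 12.8, 10.9 and 7.53 FPKM in N134 tumours, 9.16, 3.70 and 3.66 in N134-RHAMMB tumours and 22.8, 25.6 and 18.9 in metastases. Every metastasis was above every tumour. It rose by 1.94 against N134-RHAMMB tumours (SE 0.30, limma adjusted p = 0.00180), or 1.19 (adjusted p = 0.0764) without N134-RHAMMB tumours 2 and 4, which held the muscle markers. Against N134 tumours the difference of 1.05 just missed the threshold (adjusted p = 0.0530), and it passed without N134-RHAMMB tumour 1 (adjusted p = 0.00885).

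Serpina3g, an intracellular inhibitor of cathepsins, was at 0.920, 1.51 and 1.33 FPKM in N134 tumours, 1.01, 1.19 and 0.846 in N134-RHAMMB tumours and 2.93, 4.81 and 6.97 in metastases. It rose by 1.5 against N134-RHAMMB tumours (SE 0.24, limma adjusted p = 0.00247), a call lost without N134-RHAMMB tumours 2 and 4 (1.5, adjusted p = 0.0934), and by 1.34 against N134 tumours (adjusted p = 0.00468). Serpina3i, at 1.52 to 4.41 FPKM over the 9 libraries, was not called in any comparison. Serpina9, known from germinal centre B cells, was at 1.01 to 3.08 FPKM in tumours and 0.286 to 1.78 in metastases and was not called either.

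Serping1 (ENSMUSG00000023224, chromosome 2, 84765387 to 84775444), the C1 inhibitor of complement and contact activation, was a liver-clade gene with a high level under the skin. It measured 25.3, 28.1 and 26.2 FPKM in N134 tumours, 18.6, 18.0 and 22.1 in N134-RHAMMB tumours and 34.9, 49.4 and 36.3 in metastases. The 3 groups did not overlap, with N134-RHAMMB tumours lowest. It rose by 0.99 against N134-RHAMMB tumours (SE 0.14, limma adjusted p = 0.00121). The rise of 0.57 against N134 tumours (adjusted p = 0.0335) was lost without any 1 of the N134 tumours and without N134-RHAMMB tumour 1 (limma adjusted p = 0.0561 to 0.119). Its targets C1s1 and C1ra averaged 6.10, 3.78 and 15.3 FPKM and 2.1, 1.15 and 6.51 FPKM in the 3 groups, and both rose against N134-RHAMMB tumours by 1.80 (adjusted p = 0.00125 and 9.74e-06).

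Serpinf1 (ENSMUSG00000000753, chromosome 11, 75409769 to 75422701), PEDF, a secreted factor known to restrain new vessel growth that inhibits no protease, lies beside Serpinf2 but did not share its pattern. It measured 37.9, 27.3 and 22.0 FPKM in N134 tumours, 15.3, 8.43 and 16.8 in N134-RHAMMB tumours and 21.3, 27.6 and 29.5 in metastases. N134-RHAMMB tumours were lower than both other groups in every library. The differences were -1.07 for N134-RHAMMB against N134 tumours (SE 0.26, limma adjusted p = 0.15), 0.94 for metastases against N134-RHAMMB tumours (adjusted p = 0.0656) and -0.13 against N134 tumours (adjusted p = 0.852). The second was called under median-of-ratios scaling (1.0, adjusted p = 0.0240) and quantile normalization (0.94, adjusted p = 0.0278). Fibroblast markers were lower in N134-RHAMMB than N134 tumours too (366 to 598 against 738 to 1030 FPKM in sum). In metastases, where Serpinf1 was above every N134-RHAMMB tumour, these markers summed to 226 to 437 FPKM. Their part in the values of Serpinf1 was not tested.

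Serpinh1 (ENSMUSG00000070436, chromosome 7, 99345376 to 99353239), HSP47, which holds procollagen in its fold before secretion, was the most abundant serpin outside clade A under the skin. It measured 60.1, 74.2 and 48.6 FPKM in N134 tumours, 31.1, 33.4 and 45.7 in N134-RHAMMB tumours and 28.1, 20.3 and 35.1 in metastases. The N134 tumours were above all other libraries, and the other groups overlapped. It fell by 1.12 in metastases against N134 tumours (SE 0.22, limma adjusted p = 0.00868). For N134-RHAMMB against N134 tumours the difference was -0.72 (adjusted p = 0.225).

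Of 25 genes of collagens and their synthesis, 10 fell and 0 rose in metastases against N134 tumours (median -0.47), beside 4.23% of all genes lower. The largest were Col5a2 (-1.93, limma adjusted p = 0.00257), Col1a2 (-1.80, 0.0101) and Col6a2 (-1.76, 5.58e-04). Fibroblast markers fell in the same comparison (11 of 14, median -1.65), and their part in the values of Serpinh1 and the collagens was not tested. Col1a1, Col1a2 and Col3a1 are members of both lists, so the counts of the lists are not independent. Against N134-RHAMMB tumours 3 of the 25 fell and 0 rose (median -0.21, beside 1.52% of all genes lower): the largest differences were Lox, the collagen cross-linking oxidase (-1.12, adjusted p = 0.0416), Col5a2 (-1.08, 0.0854) and Col6a1 (-1.04, 0.00867). Between the subcutaneous groups none of the 25 was called (9 at an unadjusted p under 0.05, median -0.43). Of all 12854 genes 1648 had such a p.

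**Figure D4:**
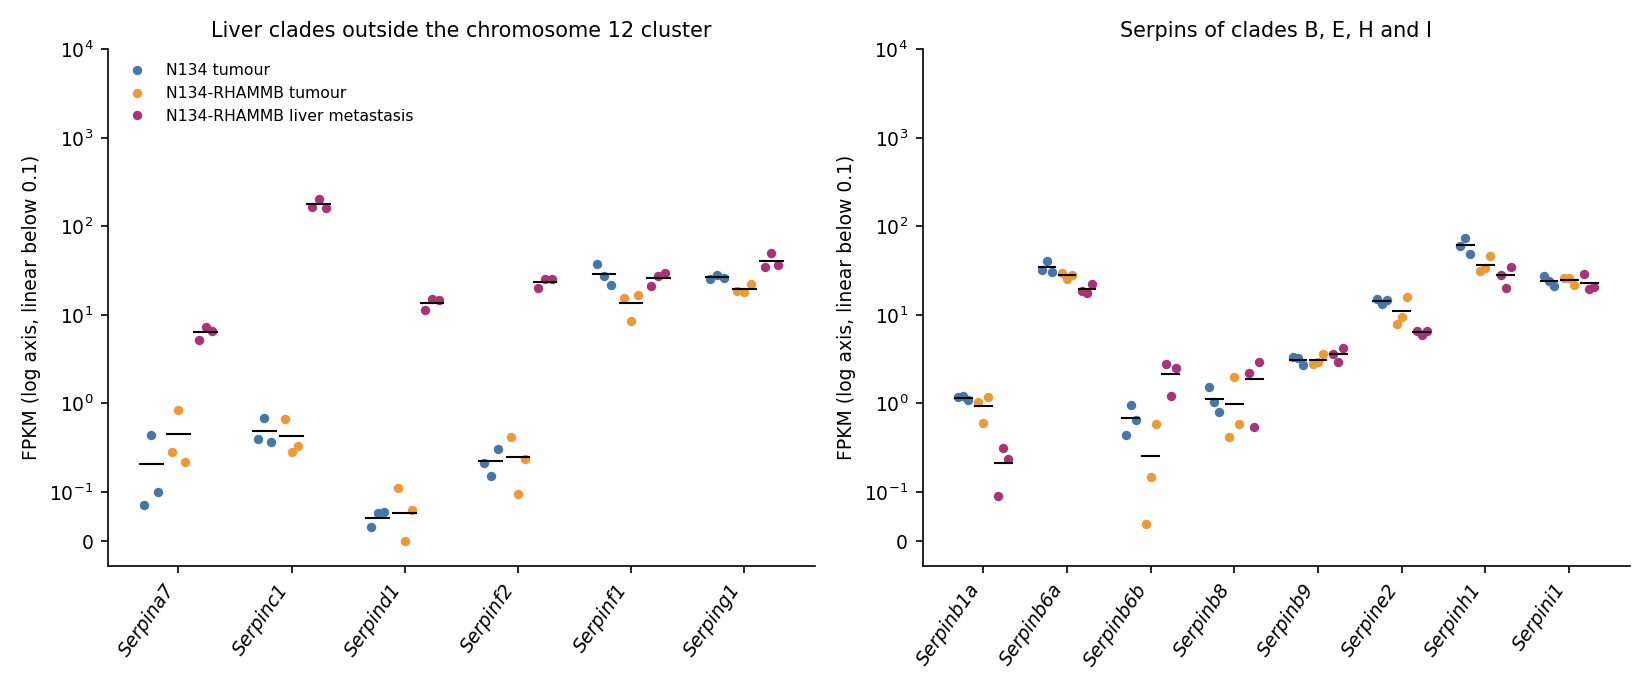
FPKM in each library (points, 3 per group; bars are group means; log axis, linear below 0.1) of the liver-clade serpins outside the chromosome 12 cluster (left) and of 8 serpins of clades B, E, H and I (right). On the left Serpina7, Serpinc1, Serpind1 and Serpinf2 were below 1 FPKM in all 6 subcutaneous tumours; on the right Serpinh1 was highest in the N134 tumours and Serpini1 overlapped in all groups.

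Among clade B, Serpinb6a, an intracellular inhibitor of cathepsin G, was the abundant member, at 32.2, 40.5 and 30.4 FPKM in N134 tumours, 29.8, 25.5 and 28.2 in N134-RHAMMB tumours and 18.7, 17.4 and 22.2 in metastases. The groups did not overlap and stood in that order. It fell by 0.79 in metastases against N134 tumours (SE 0.14, limma adjusted p = 0.00416), while the difference of -0.50 against N134-RHAMMB tumours missed the threshold (adjusted p = 0.0672) and passed without metastasis 3 (adjusted p = 0.0461). Ctsg, cathepsin G itself, had no value above 0 in any subcutaneous tumour or in metastasis 1, and reached 0.143 FPKM at most.

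Serpinb1a, an inhibitor of neutrophil proteases, was at 1.19, 1.20 and 1.09 FPKM in N134 tumours, 1.03, 0.599 and 1.18 in N134-RHAMMB tumours and 0.0919, 0.314 and 0.233 in metastases. Every metastasis was below every tumour. It fell by 0.84 against N134 tumours (limma adjusted p = 0.00758), having passed the filter through subcutaneous tumours alone. The fall of 0.67 against N134-RHAMMB tumours (adjusted p = 0.0353) was lost when any 1 N134 tumour was left out, and likewise for N134-RHAMMB tumours 1 and 4 and metastases 1 and 3 (limma adjusted p = 0.0604 to 0.155). Its relative Serpinb6b was at 0.437, 0.955 and 0.645 FPKM in N134 tumours, 0.0339, 0.146 and 0.590 in N134-RHAMMB tumours and 2.75, 1.22 and 2.5 in metastases.

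Every metastasis was above every tumour for Serpinb6b. It rose by 1.32 against N134-RHAMMB tumours (SE 0.24, limma adjusted p = 0.00656), the only one of 5 tested clade B genes called higher there. Serpinb6b passed the filter through the metastases alone and so had to differ. The rise of 0.88 against N134 tumours (adjusted p = 0.0467) was lost without any 1 of N134 tumours 1, 2 and 3, N134-RHAMMB tumours 1 and 2, and metastases 1 and 3 (adjusted p = 0.0615 to 0.173). Serpinb9, the inhibitor that shields cells from granzyme B, stayed at 2.71 to 4.22 FPKM over the 9 libraries, and Serpinb8, which is known to inhibit furin, ranged from 0.418 to 2.91 without order by group. Neither was called.

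Serpini1 (ENSMUSG00000027834, chromosome 3, 75557547 to 75643495), neuroserpin, an inhibitor of the tissue plasminogen activator made by neurons and endocrine cells, had nearly one level. It measured 27.6, 24.3 and 20.9 FPKM in N134 tumours, 25.9, 26.1 and 22.0 in N134-RHAMMB tumours and 28.9, 19.8 and 20.5 in metastases. The differences were 0.03 for N134-RHAMMB against N134 tumours, -0.11 for metastases against N134-RHAMMB tumours and -0.08 against N134 tumours (SE 0.16 each, limma adjusted p = 0.845 to 0.968). The spread within a group covered all of them.

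The low members were spread unevenly over the libraries. Of the clade B genes known from skin, Serpinb5 (maspin), Serpinb2, Serpinb3b, Serpinb7 and Serpinb12 had their highest value in N134-RHAMMB tumour 2 (1.23, 0.315, 0.519, 0.208 and 0.276 FPKM). Keratinocyte markers summed to 73.0 FPKM in that library, of which Krtdap made up 51.4, and their part in these serpin values was not tested. All 5 were also above 0 in N134 tumour 2, with the next highest keratinocyte sum (17.5), and at 0 in every metastasis but for Serpinb2 at 0.0561 in metastasis 3. These 5 were picked after their values were seen, and others went another way. Serpinb3a was highest in N134-RHAMMB tumour 1 (0.766 FPKM, with 0.179 in tumour 2), where the keratinocyte sum was 8.36. Serpinb11 was above 0 in N134 tumour 2 alone (0.104), and Serpinb13 was at 0 throughout. Among clade A genes under 1 FPKM, Serpina3a and Serpina5 were listed at 0 in all 6 tumours and measured 0.130 to 0.199 and 0.0496 to 0.0808 FPKM in metastases. Serpina3f was at 0 to 0.0936 in tumours and 0.175 to 0.489 in metastases. Serpina3b, Serpina3j, Serpina12 and Serpina1f reached at most 0.436, 0.0802, 0.199 and 0.0204 FPKM.

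Across the wider list of protease targets of serpins (37 genes, 25 tested), 15 rose and 1 fell in metastases against N134-RHAMMB tumours (median 1.46), and 15 rose and 4 fell against N134 tumours (median 1.27). Of all genes 5.04% were higher and 1.52% lower in the first, and 5.69% and 4.23% in the second. Of the 15 that rose, 11 in each comparison reached 1 FPKM only in metastases and so had to differ. The hepatocyte marker sum moved with them (365 to 504 against 6980 to 7370 FPKM), and its part was not tested. F2, Plg and F12, coagulation factor XII (4.31, limma adjusted p = 2.12e-08), led the first, and F2 (5.66), Plg (5.03) and Proc, protein C (4.29, adjusted p = 1.67e-08), the second. Of the serpin receptors and cofactors (15 genes, 14 tested), 2 rose and 0 fell in the first, Vtn (5.99) and the heparan sulfate proteoglycan Sdc4 (1.90, adjusted p = 3.06e-05), with Gpc3 at -0.67 (adjusted p = 0.0562). In the second 3 rose and 2 fell. Between the subcutaneous groups none of either list was called (8 and 5 at an unadjusted p under 0.05). Of all 12854 genes 1648 had such a p in that comparison. There the largest differences were Ctss (-0.67), C1s1 (-0.62) and Cela1 (0.59) among targets, and Gpc3 (-0.67), Plaur (-0.65) and Sdc1 (0.64) among receptors.

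Liver transcription factors (15 genes, 12 tested) were measured in the same libraries. 6 rose and 0 fell in metastases against N134-RHAMMB tumours (median 0.71) and 5 and 0 against N134 tumours (median 0.49), beside 5.04% and 5.69% of all genes higher. Among them Foxa3, Nr1i2, Nr1i3 and Nr5a2 reached 1 FPKM only in metastases and so had to differ. The part of the hepatocyte marker sum, which moved with them (365 to 504 against 6980 to 7370 FPKM), was not tested. The largest were Nr1i3 (3.14, limma adjusted p = 2.04e-07), Nr1h4 (2.02, 2.69e-05) and Nr1i2 (1.45, 4.28e-05), nuclear receptors of drug and bile acid sensing, against N134-RHAMMB tumours, with Foxa3 (1.79, 3.18e-05) among the top of the other. Hnf4a and Foxa2, named after their values were seen, had means of 35.8, 34.4 and 36.4, and of 28.1, 35.3 and 30.1 FPKM in the 3 groups, and neither was called in any comparison. Between the subcutaneous groups none of the list was called (2 at an unadjusted p under 0.05), with Foxa3 (0.51), Onecut2 (-0.41) and Cebpa (-0.39) the largest differences. Of all 12854 genes 1648 had such a p.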

How the data were processed

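Total RNA of 9 tumours (3 groups of 3) was sequenced. The authors deposited 1 table of FPKM per gene and library. The tools named per the submitters' processing notes are Cufflinks 2.1.1, STAR 2.5.2 and bcl2fastq 2.19, with build GRCm38. The sources used here give neither their roles nor the strand setting. Of 22053 rows, 7 with a failed status were dropped, and for repeated symbols the row with the highest mean was kept (102 rows dropped), leaving 21944 genes; 40 rows, among them Serpinb10, were marked as low data. Genes at 1 FPKM or more in at least 3 libraries (12854) were tested on log2(FPKM + 1) with limma 3.58.1 (R 4.3.3, intensity trend, 1 model over 9 libraries, 6 residual degrees of freedom), Benjamini-Hochberg adjusted over all of them. Every adjusted p in the text is from limma. The fit was tested on simulated data. Coding sequences were aligned with mafft 7.526.

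Serpins with a mean of 5 FPKM or more in any group, or past the threshold in any comparison, were named with all values; from each list the 3 genes with the largest difference per comparison were named, and textbook partners of a serpin. Some named items are not reported here. The members and lists were chosen with earlier results of these data known. The lists were protease targets, receptors and cofactors, collagen synthesis, other protease inhibitors, liver transcription factors and cell type markers. Alternatives covered the pseudocount (0.1), filter, scaling, variance model, samples in the fit, minimum change (0.5), replicate block and each library left out. The fit without N134-RHAMMB tumours 2 and 4 was added after seeing the data; it leaves 1 library in that group, which is assumed to vary like the others.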

Additional observations from a re-analysis of the deposited data

How the results depend on the processing

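Depth limits values near 0, and 3 libraries per group limit every test. Counts below are of all genes, then of serpins, and the causes were not tested unless fewer genes or samples are named. N134-RHAMMB against N134 tumours gave 25 genes and 0 serpins. It gave 15 genes at a mean of at least 5 FPKM (fewer genes tested), 2629 genes and 10 serpins with library weights, 1 gene against a minimum change of 0.5, 169 genes and 3 serpins with the 2 groups alone, and 1 gene without N134-RHAMMB tumours 2 and 4 (fewer samples). Leaving out 1 library gave 0 to 193 genes and 0 to 2 serpins. Metastases against N134-RHAMMB tumours gave 843 genes and 16 serpins. These became 347 and 9 at a mean of at least 5 FPKM, while library weights gave 1950 genes, the minimum change 489 and the loss of tumours 2 and 4 504. Metastases against N134 tumours gave 1276 genes and 20 serpins, against 594 and 12 at a mean of at least 5 FPKM and 562 and 11 with the minimum change. Quantile normalization moved the share of calls that were higher in metastases from 76.9% to 66.7% against N134-RHAMMB tumours and from 57.4% to 48.0% against N134 tumours.

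Differences that changed sign were all uncalled, and among them those of the Serpina1 copies moved most when 1 library was left out. Leaving out 1 library moved N134-RHAMMB against N134 tumours from -0.12 to 0.20 for Serpina3c, -0.17 to 0.04 for Serpinc1, -0.02 to 0.05 for Serpind1, -0.07 to 0.11 for Serpinf2 and -0.07 to 0.12 for Serpini1. It moved metastases against N134-RHAMMB tumours from -0.13 to 0.43 for Serpina1a and -0.86 to 0.19 for Serpina1d. Against N134 tumours the ranges were -0.29 to 0.35 for Serpina1b, -0.52 to 0.53 for Serpina1d, -0.30 to 0.08 for Serpinf1 and -0.25 to 0.01 for Serpini1. In the first comparison Serpinc1 was at 0.13 with library weights and 0.18 without N134-RHAMMB tumours 2 and 4, and Serpini1 at 0 after quantile normalization. Library weights also put Serpina1d at 0.07 in the second and Serpini1 at 0.09 in the third.

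Replicate numbers were shared between groups, but none of the 7 same-number pairs correlated over 0.1 (0 to 0.1), so the numbers were not taken as a pairing. With the replicate block the 3 comparisons called 1, 646 and 1097 genes and 0, 14 and 18 serpins. For N134-RHAMMB against N134 tumours the block put Serpina3g at 0.04 and Serpina6 at 0.08.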

Other observations

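Protease inhibitors of other families were measured beside the serpins. Of 24 genes, 20 were tested; 11 were higher and 2 lower in metastases against N134-RHAMMB tumours (median 1.27), and 12 and 2 against N134 tumours (median 1.32), beside 6.56% and 9.93% of all genes called. Of those higher, 9 in each comparison reached 1 FPKM only in metastases and so had to differ, Ahsg and Mug1 among them. The hepatocyte marker sum moved with them (365 to 504 against 6980 to 7370 FPKM), and its part was not tested. Ahsg, fetuin-A, a liver plasma protein, rose by 8.46 and 8.27 in these comparisons, and Mug1, a murinoglobulin that traps proteases, by 5.94 and 5.88. Ahsg is also a member of the hepatocyte list, so its value counts in both. Timp1, a tissue inhibitor of metalloproteinases, ran the other way, with a mean of 35.1 FPKM in N134 tumours, 12.8 in N134-RHAMMB tumours and 3.59 in metastases. It fell by 1.73 in metastases against N134-RHAMMB tumours (limma adjusted p = 0.0396) and fell by 3.01 against N134 tumours (adjusted p = 0.000986), while the difference between the subcutaneous groups was -1.27 (adjusted p = 0.261). No gene of this list was called between the subcutaneous groups (0 of 20 in limma, 3 at an unadjusted p under 0.05). Of all 12854 genes 1648 had such a p.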
